A study of Mus musculus with 22 samples.

Results

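The genes described here are 10 components and targets of YAP/TAZ-TEAD transcription, namely Ccn1, Ccn2, Ankrd1, Amotl2, Lats2, Ajuba, Tead1, Tead4, Yap1 and Wwtr1. They were taken by symbol from a table of 11208 genes, and all 10 were in it. RNA was measured in NIH/3T3 cells, an established line of mouse embryonic fibroblasts, with a stably integrated doxycycline-inducible construct for E2F1 (the E2F1 line) or with the empty vector in its place (the EV line). Cells of each kind spent 48 h in 0.25% serum to bring them to rest, and the 0 h libraries of each line were taken at that point. Each line then received 500 ng/ml doxycycline while it stayed in 0.25% serum. In a separate series the EV line received 10% serum and no doxycycline. Libraries were taken at 2, 6 and 12 h in each series. Each of the 11 groups held 2 libraries, and the EV 0 h group served both the doxycycline and the serum series of that line. The labels do not say whether the libraries of a group came from separate cultures, so p-values measure only the spread between these libraries, which may be technical. Whether each line was a single clone or a pool is not given in the sources used here.

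YAP and TAZ (encoded by Yap1 and Wwtr1) are transcriptional coactivators that lack a DNA-binding domain of their own and act mainly through the TEAD family of DNA-binding factors. The Hippo kinases, of which LATS1 and LATS2 are the last in the cascade, phosphorylate YAP and TAZ and so keep them out of the nucleus, while serum, cell spreading and mechanical tension favour their nuclear entry. Ccn1, Ccn2 and Ankrd1 are the most widely used target genes, and Lats2, Amotl2 and Ajuba code for proteins that act on the pathway, so that some of its targets are also its regulators. RNA levels, as measured here, do not show the location or phosphorylation of these proteins.

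The deposited values summed to between 34014608 and 46057140 normalized counts per library, and no gene in the table had a mean below 99.6. Squared differences between replicates were 7.33 to 16.4 times those of counting noise (median over genes, with the scaled values taken as counts). For a typical gene counting noise was thus the smaller part of the spread. Whether depth limited the comparisons of genes with lower values was not tested. In bulk RNA, fewer cells of a type and less RNA per cell cannot be told apart. All 8 fibroblast markers sought were in the table, with sums of 670466 to 1386950 per library, while no epithelial, endothelial or skeletal muscle marker was in it and of 4 immune markers only Cd14 was, at 62 to 395. E2f1 itself stood at 3806 and 3602 normalized counts at 6 h and at 2683 and 2845 at 12 h in the E2F1 line, against 1345 to 1635 at the same times in the EV line under doxycycline. Serum-treated EV cells held 4615 and 4247 at 12 h. At 2 h it stood at 1535 and 1755 in the E2F1 line, beside 1703 and 1637 at 0 h. The doxycycline 2 h libraries stood apart in genes that tell the lines from each other. Those genes were chosen as at least 4-fold apart between the lines in the other libraries. The doxycycline libraries among these also set the scale. The doxycycline 2 h libraries took no part in the choice, so a gap between them and the rest may come in part from it. Over 6 such genes (Adamts9, Arhgap28, Brinp3, Serpine2, Tmem176a and Tmem176b), on a scale where 0% is the EV level and 100% the E2F1-line level, the EV 2 h libraries had medians of 6.93% and 9.46%, against -1.21% to 0.74% in the other EV doxycycline libraries. The E2F1-line 2 h libraries had medians of 59.5% and 62.8%, against 78.3% to 127% in the other libraries of that line. The serum libraries were not placed on this scale. At 2 h of serum Serpine2 stood at 523 and 626, Tmem176a at 62 and 91, and Tmem176b at 137 and 83. The EV 0 h libraries held 231 and 122, 19 and 23, and 25 and 49. Adamts9, Arhgap28 and Brinp3 were not above both EV 0 h libraries at 2 h of serum. Whether the libraries of the lines were partly mixed at 2 h was not tested. The 2 h doxycycline changes are also given as the mean of both lines.

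TEAD factors bind the letters GGAATG, and the windows below are shown because they hold this match in front of the genes described. RefSeq start sites of build GRCm38.p6 were on hand for 7 of the 10 genes. Ccn2, Tead1 and Tead4 had no entry. The 250 bases upstream of the start held GGAATG on either strand in 6 of those 7 genes (in 7 of 9 start sites, since Lats2 and Wwtr1 have more than 1), and in 12.6% of 32544 promoter windows of the same length. The exception was Lats2. Each line gives 30 bases on the strand where the match reads as GGAATG, in capitals, for the match nearest to the start.
Ccn1: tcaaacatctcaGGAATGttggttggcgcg
Ankrd1: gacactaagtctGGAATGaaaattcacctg
Amotl2: gctgctatgccaGGAATGtgagagtttcag
Ajuba: ttgtttacagttGGAATGcgcggaggggca
Yap1: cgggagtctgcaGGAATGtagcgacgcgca
Wwtr1: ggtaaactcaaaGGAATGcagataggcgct

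The Ccn1 window lies at chr3:145650071-145650100 (plus strand), with its match 103 to 98 bases before the start. The Ankrd1 window lies at chr19:36119950-36119979 (minus strand, match 123 to 118 bases before the start), and a second match stands 210 to 205 bases before the start. Amotl2 has its window at chr9:102717727-102717756 (minus strand, 65 to 60 bases before the start). In GENCODE M21 the Ankrd1 and Amotl2 windows overlap an exon of the gene's own longer transcripts, and the other 4 windows lie upstream of the gene. The Ajuba window lies at chr14:54577808-54577837 (plus strand, match 164 to 159 bases before the start), beside a second match 186 to 181 bases before it. The windows of Yap1 (chr9:8004720-8004749, match 141 to 136 bases before the start) and Wwtr1 (chr3:57576029-57576058, match 136 to 131 bases before the start) lie on the minus strand. E2F motifs were searched on both strands as TTCCCGC, then with the letters TTCGCGC, then with the letters TTGCCGC, then with the letters TTGGCGC. A match was found in 1 of the 7 genes, Ccn1, and in 7.94% of the promoter windows. In Ccn1 it stands 114 to 108 bases before the start, within the 30 bases shown above as ttggcgc, and does not overlap the TEAD match. The AP-1 motif TGANTCA (6.73% of windows) and the CArG box of serum response factor (1.48%) were found in none of the 7. A match describes letters in a window and shows no binding.

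The largest changes from 0 h among the 10 genes were those of Ccn1 and Ccn2 under serum. At 12 h in the E2F1 line the largest was that of Ajuba (-1.13), close to that of Ccn1 (-1.05). Over the alternative fits Ajuba ran from -1.34 to -1.06 and Ccn1 from -1.55 to -0.56, so their order is not settled. Changes are log2 differences of normalized counts plus 1 between group means, fitted with limma over all 22 libraries, with p-values adjusted over all 11208 genes and a threshold of 0.05. At 2 h of serum 70.9% of all genes passed the threshold, and of the 10 genes 5 were higher than at 0 h (37.5% of all genes) and 1 was lower (33.5%). All 10 were higher at 6 h of serum, where 67.5% of all genes passed and 36.5% passed as higher. When quantile normalization or equal library totals replaced the authors' scaling, 9 of the 10 passed, with Ajuba at 0.14 (adjusted p = 0.331) and 0.18 (adjusted p = 0.232). At 12 h of serum, where 65.7% of all genes passed, 4 were higher (36% of all genes) and 1 was lower (29.7%). The median log2 change of the 10 genes was 0.62, 0.86 and 0.20 at these times, against 0.03, 0.03 and 0.05 over all genes. Equal totals lowered the median of all genes by 0.37 at 2 h and 0.21 at 6 h of serum, and the share of higher genes among those that passed went from 52.8% to 30.7% and from 54.1% to 37.9%.

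Under doxycycline the counts differed between the lines and times. At 2 h in the E2F1 line 1 of the 10 genes was lower (1.86% of all genes passed, 0.99% as lower). At 6 h 51.7% of all genes passed there, with 2 of the 10 higher (28.8% of all genes) and 1 lower (22.9%). At 12 h 61.5% passed, with 1 of the 10 higher (31.8%) and 4 lower (29.7%). The EV line had 1 gene lower at 2 h (7.35% of all genes passed, 2.43% as lower) and 2 lower at 12 h (4.17%, 3.42% as lower). Single libraries decided some of these counts. Without E2F1 0 h replicate 2 the E2F1 line had 0, 1 and 3 of the 10 genes passing at 2, 6 and 12 h, without its 2 h replicate 1 it had 0 at 2 h, and without the replicate 2 library of 6 h or of 12 h it had 1 and 3 at those times. Without EV 0 h replicate 2 none passed in the EV line at 2 or 12 h. Without EV 0 h replicate 1 the number at 2 h was 2, without either 2 h library it was 0, and without 12 h replicate 1 that at 12 h was 1. At 6 h none of the 10 passed in the EV line, where 15 of all genes (0.134%) did, and 2 of the 10 had an unadjusted p under 0.05. With the mean of both lines at 2 h, 3 of the 10 passed (Ccn1, Ccn2 and Tead1), beside 12.5% of all genes, and the other 7 lay between -0.28 (Ankrd1, adjusted p = 0.244) and 0.06 (Tead4, adjusted p = 0.748). At 6 h in the E2F1 line quantile normalization lowered the median of all genes by 0.11, and the share of higher genes among those that passed went from 55.7% to 41%. 

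**Figure D1:**
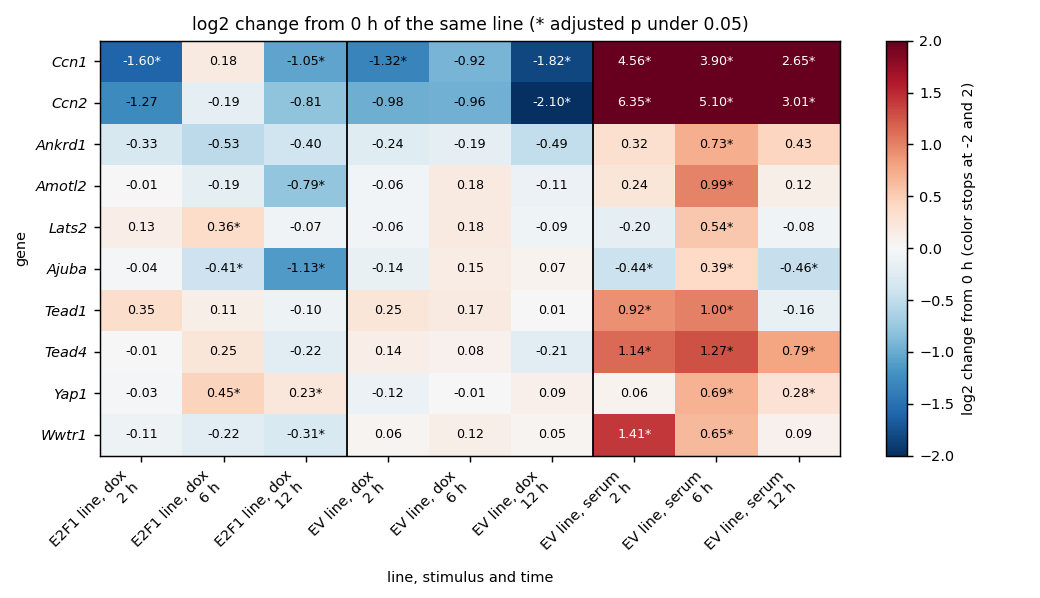
Log2 change from 0 h of the same line for the 10 genes (rows) in each line, stimulus and time (columns), with the value printed in each cell and an asterisk where the limma adjusted p is under 0.05. Colour stops at -2 and 2, so the serum changes of Ccn1 and Ccn2, up to 4.56 and 6.35, share the darkest red.

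Lats2 (chromosome 14, 57689662 to 57758388, minus strand, GRCm38 with GENCODE M21 for all gene positions) codes for a kinase that phosphorylates YAP and TAZ. Its level stayed between 680 and 1393 normalized counts in all 22 libraries. The 6 h serum libraries stood at 1393 and 1242, against 914 and 890 at 0 h, and did not overlap them. Their log2 change was 0.54 ± 0.13 (± is the standard error here and below; adjusted p = 0.00148). At 2 h of serum the libraries held 680 and 906 and overlapped those at 0 h (-0.20, adjusted p = 0.186). With equal totals the 2 h change was -0.57 (adjusted p = 0.000676). It was 0.01 without serum 2 h replicate 1 and -0.41 without serum 2 h replicate 2. At 12 h 951 and 769 overlapped the 0 h libraries too. The fall from 6 to 12 h of serum passed the threshold (-0.62, adjusted p = 0.00114). Under E2F1 induction Lats2 went from 941 and 877 at 0 h to 1211 and 1126 at 6 h (0.36 ± 0.13, adjusted p = 0.0298). Leaving out any 1 of these 4 libraries ended that call (0.31 to 0.41, adjusted p 0.0527 to 0.153), and equal totals gave 0.25 (adjusted p = 0.116) and quantile normalization 0.26 (adjusted p = 0.0852). The gene overlaps Gm49361, a protein-coding gene on the same strand, so reads of the pair may be hard to tell apart.

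Ajuba (chromosome 14, 54567472 to 54577558, minus strand) codes for a LIM-domain protein that binds LATS kinases and restrains them. Its E2F1-line libraries stood at 3649 and 3723 normalized counts at 0 h, 3544 and 3651 at 2 h, 2907 and 2636 at 6 h, and 1606 and 1763 at 12 h. Both 12 h libraries lay below every other library of the series, and the log2 change from 0 h was -1.13 ± 0.13 (adjusted p = 7.56e-07), a 2.19-fold fall. The fall was already present at 6 h (-0.41, adjusted p = 0.0137), but that call was lost without 0 h replicate 2 (-0.40, adjusted p = 0.0649) or 6 h replicate 2 (-0.34, adjusted p = 0.0972). Ajuba in the EV line with doxycycline stayed between 2949 and 3942, with no change at any time that passed the threshold.

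Serum gave Ajuba a course with both directions. It held 3942 and 2972 at 0 h, 2177 and 2934 at 2 h, 4168 and 4848 at 6 h, and 2490 and 2473 at 12 h, so the 6 h libraries were the highest of the series. The rise from 2 to 6 h (0.83 ± 0.13, adjusted p = 4.54e-05) and the fall from 6 to 12 h (-0.86, adjusted p = 4.65e-05) use no 0 h library. Against 0 h the log2 changes were -0.44 (adjusted p = 0.00612), 0.39 (adjusted p = 0.0131) and -0.46 (adjusted p = 0.00471). Those calls rested on how far apart the 0 h libraries were. Without 0 h replicate 1 the 2 h and 12 h values were -0.23 (adjusted p = 0.153) and -0.26 (adjusted p = 0.123), and the 6 h value was 0.60 (adjusted p = 0.0014). Without 0 h replicate 2 the 6 h value was 0.19 (adjusted p = 0.251), without 6 h replicate 2 it was 0.28 (adjusted p = 0.126), and without 2 h replicate 1 the 2 h value was -0.22 (adjusted p = 0.171).

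Amotl2 (chromosome 9, 102716672 to 102733418, plus strand) codes for an angiomotin, a junction protein that binds YAP and holds it in the cytoplasm, and it is also a YAP/TAZ target. It fell in the E2F1 line, from 17783 and 16446 normalized counts at 0 h to 9816 and 10010 at 12 h, the lowest values of the series (-0.79 ± 0.14, adjusted p = 8.29e-05). At 2 h (16979 and 16912) and 6 h (15779 and 14338) it had not passed the threshold. In serum it held 20643 and 26570 at 2 h, 40205 and 38868 at 6 h, and 23397 and 19864 at 12 h. The 6 h rise over the 0 h libraries, which held 22942 and 17153, was 0.99 ± 0.14 (adjusted p = 4.69e-06), and the level then fell back by 12 h (-0.87, adjusted p = 6.67e-05). Under doxycycline the EV line stayed between 16566 and 24420, and no change passed.

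Yap1 (chromosome 9, 7931999 to 8004596, minus strand) varied least of the 10 genes, by 1.86-fold between its lowest and highest library. The E2F1 line held 5798 and 5551 normalized counts at 0 h, 5425 and 5705 at 2 h, 8026 and 7505 at 6 h, and 6616 and 6653 at 12 h. The 6 h rise was 0.45 ± 0.07 (adjusted p = 2.14e-05). At 12 h the change was 0.23 (adjusted p = 0.00734), which did not pass without 0 h replicate 2 (0.19, adjusted p = 0.0621) or with quantile normalization (0.03, adjusted p = 0.629). The EV line under doxycycline stayed between 5377 and 6444 with no change that passed. Under serum Yap1 stood at 6123 and 6473 at 2 h, within reach of the 0 h libraries at 5825 and 6219 (0.06, adjusted p = 0.4), and rose to 9497 and 9996 at 6 h (0.69 ± 0.07, adjusted p = 5.21e-08). It was at 7424 and 7235 at 12 h (0.28, adjusted p = 0.00122; with quantile normalization 0.08, adjusted p = 0.273). The 2 h serum value depended on the scaling. It was -0.36 (adjusted p = 3.87e-05) with quantile normalization and -0.31 (adjusted p = 0.000165) with equal totals, which lowered the median of all genes at 2 h of serum by 0.37.

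Wwtr1 (chromosome 3, 57455649 to 57575910, minus strand), the gene for TAZ, had its peak earlier than Yap1. Serum took it from 4998 and 5216 normalized counts at 0 h to 14774 and 12491 at 2 h, then to 7482 and 8527 at 6 h and 5618 and 5268 at 12 h. The 2 h libraries were the highest of the series, and the log2 change was 1.41 ± 0.09 (adjusted p = 1.59e-10), a 2.66-fold rise. It was still 0.65 (adjusted p = 5.9e-06) at 6 h and no longer passed at 12 h (0.09, adjusted p = 0.388). Between 2 and 6 h of serum Wwtr1 fell (-0.77, adjusted p = 2.07e-06) while Yap1 rose (0.63, adjusted p = 5.75e-07). Induction in the E2F1 line took Wwtr1 from 5080 and 4921 to 4296 and 4294 at 6 h (-0.22, adjusted p = 0.0528) and to 4192 and 3890 at 12 h (-0.31 ± 0.09, adjusted p = 0.00712). All 4 of these later libraries were below those at 0 h, and with equal totals the 6 h value passed too (-0.34, adjusted p = 0.004). The 12 h call was lost without 12 h replicate 2 (-0.25, adjusted p = 0.0656).

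The ratio of Wwtr1 to Yap1 within a library does not depend on the scaling of that library, and its changes show the uneven response of the genes for the coactivators. It is not corrected for gene length, so its size is not a ratio of transcripts. It lay between 0.79 and 0.97 in the 8 EV libraries of the doxycycline series. At 2 h of serum it was 2.41 and 1.93, above every other library, and at 6 and 12 h of serum it was back at 0.73 to 0.85. Its E2F1-line values were 0.876 and 0.887 at 0 h, 0.819 and 0.848 at 2 h, 0.535 and 0.572 at 6 h, and 0.634 and 0.585 at 12 h, so that its 6 h and 12 h libraries lay below all others.

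**Figure D2:**
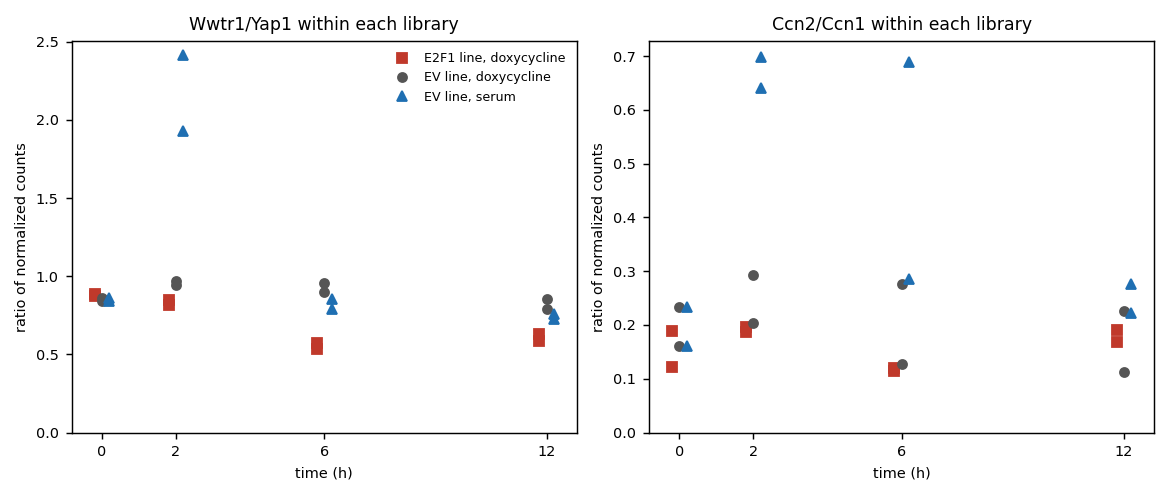
Ratio of normalized counts within each library (linear axis from 0) against time in hours, for Wwtr1 over Yap1 (left) and Ccn2 over Ccn1 (right), with 1 point for each library and the EV 0 h libraries drawn in both EV series. Wwtr1 over Yap1 is high at 2 h of serum (2.41 and 1.93) and low at 6 and 12 h in the E2F1 line (0.535 to 0.634), and Ccn2 over Ccn1 is high at 2 h of serum (0.640 and 0.699).

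Tead1 (chromosome 7, 112679318 to 112906807, plus strand) codes for a widely expressed TEAD factor. It held 8676 and 8557 normalized counts at 0 h in the EV line and rose under serum to 16135 and 16515 at 2 h (0.92 ± 0.09, adjusted p = 4.78e-08) and 16060 and 18568 at 6 h (1.00 ± 0.09, adjusted p = 2.35e-08). By 12 h it was at 8098 and 7387, both below the 0 h libraries, with a change of -0.16 (adjusted p = 0.14) that passed only with quantile normalization (-0.33, adjusted p = 0.00184) or equal totals (-0.24, adjusted p = 0.0257). The fall from 6 to 12 h of serum (-1.16, adjusted p = 2.68e-08) was the 152nd largest of the 11208 genes. No doxycycline change of Tead1 from 0 h passed within either line with the authors' scaling. At 12 h in the E2F1 line it was -0.10 (adjusted p = 0.35), but -0.30 (adjusted p = 0.00419) with quantile normalization. At 2 h both libraries of each line were above both at 0 h (9014 and 10051 against 7314 and 7619 in the E2F1 line, 9954 and 10527 in the EV line), but the changes of 0.35 (adjusted p = 0.0571) and 0.25 (adjusted p = 0.108) did not pass. As the mean of both lines the 2 h change was 0.30 (adjusted p = 0.00613).

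Tead4 (chromosome 6, 128224288 to 128300823, minus strand) codes for a second member of the family and stayed higher after Tead1 had returned. Serum took it from 620 and 828 normalized counts to 1552 and 1604 at 2 h (1.14 ± 0.15, adjusted p = 2.84e-06), and 1738 and 1723 at 6 h (1.27, adjusted p = 9.49e-07). The 12 h libraries, at 1196 and 1277, were still above those at 0 h (0.79, adjusted p = 0.000232). Its ratio to Tead1 within a library was 0.071 and 0.097 at 0 h, 0.093 to 0.108 at 2 and 6 h of serum, and 0.148 and 0.173 at 12 h of serum. No change of Tead4 from 0 h passed in the E2F1 line, with 952 and 1061 at 0 h, 974 and 1022 at 2 h, 1217 and 1169 at 6 h, and 994 and 746 at 12 h. At rest, before any doxycycline, Tead4 was higher in E2F1-line cells (0.49 ± 0.15 at 0 h, adjusted p = 0.0412), and it was the only one of the 10 genes to pass there, where 15% of all genes passed and 8.86% as higher. That call was lost without E2F1 0 h replicate 1 (0.57, adjusted p = 0.095), E2F1 0 h replicate 2 (0.41, adjusted p = 0.208) or EV 0 h replicate 1 (0.28, adjusted p = 0.353), and without the doxycycline 2 h libraries (adjusted p = 0.0638).

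Ccn1 and Ccn2 code for secreted matricellular proteins (CYR61 and CTGF in the older naming) and had the widest ranges of the 10 genes, 103-fold and 459-fold between the lowest and the highest library. Ccn1 (chromosome 3, 145646976 to 145649981, minus strand) held 3366 and 5576 normalized counts at 0 h in the EV line and 98252 and 106368 at 2 h of serum. It declined to 77159 and 53967 at 6 h and 32644 and 22677 at 12 h, still above every library in low serum. The log2 changes from 0 h were 4.56 ± 0.32 (adjusted p = 3.91e-10), 3.90 (adjusted p = 5.26e-09) and 2.65 (adjusted p = 9.05e-07), that is 23.6-fold, 14.9-fold and 6.28-fold. The fall from 6 to 12 h was -1.25 (adjusted p = 0.00422), and it did not pass without 6 h replicate 1 (-0.99, adjusted p = 0.0509) or 12 h replicate 2 (-0.98, adjusted p = 0.0617).

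Ccn2 (chromosome 10, 24595442 to 24598683, plus strand) rose more and fell back faster. Its 0 h libraries held 539 and 1298 normalized counts, and serum took them to 62888 and 74361 at 2 h, 22091 and 37168 at 6 h and 7271 and 6262 at 12 h. The 2 h change of 6.35 ± 0.36 (adjusted p = 2.64e-11), or 81.7-fold, was the 12th largest rise of the 11208 genes, and that of Ccn1 was the 36th. At 6 h and 12 h the changes were 5.10 (adjusted p = 8.57e-10) and 3.01 (adjusted p = 8.96e-07). The authors' deposited table gives 6.36, 5.10 and 3.04 for Ccn2 and 4.57, 3.91 and 2.68 for Ccn1. The ratio of Ccn2 to Ccn1 was 0.640 and 0.699 at 2 h of serum, against 0.112 to 0.293 in the 16 libraries of the doxycycline series. At 6 h it differed between the libraries (0.286 and 0.689), and at 12 h it was 0.223 and 0.276. Ccn2 overlaps Gm15270 on the opposite strand, and Tead1, Tead4, Yap1 and Wwtr1 also overlap other annotated transcripts. Whether the counting used strand is not given in the sources used here, so these values carry that doubt.

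In low serum with doxycycline both genes fell in the EV line. Its doxycycline libraries held for Ccn1 1748 and 1730 normalized counts at 2 h, 2725 and 1916 at 6 h, and 1447 and 1033 at 12 h. Ccn2 held 512 and 352, 349 and 528, and 162 and 233 at the same times. At 12 h the log2 changes were -1.82 ± 0.32 for Ccn1 (adjusted p = 0.0036) and -2.10 ± 0.36 for Ccn2 (adjusted p = 0.00349), the 9th and 3rd largest falls of all genes, and both libraries were below both 0 h libraries. The authors' deposited table lists 4 genes for that comparison, of which Ccn2 is 1, at -2.12. These calls leaned on the higher 0 h library. Without EV 0 h replicate 2 the changes were -1.46 and -1.47 (adjusted p = 0.118 for each), and without 12 h replicate 1 that of Ccn2 was -1.84 (adjusted p = 0.0711). The number of all genes that passed at 12 h in the EV line, 467, fell to 26 without EV 0 h replicate 2.

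At 2 h of doxycycline Ccn1 was lower in both lines, at 1789 and 2641 against 4698 and 9301 in the E2F1 line (-1.60 ± 0.32, adjusted p = 0.0124) and by -1.32 (adjusted p = 0.017) in EV cells. The mean of both lines gave -1.46 (adjusted p = 0.00053) for Ccn1 and -1.12 (adjusted p = 0.00807) for Ccn2. For the E2F1 line the Ccn1 call was lost without 0 h replicate 2 (-1.11, adjusted p = 0.265) or 2 h replicate 1 (-1.32, adjusted p = 0.171). For the EV line it was lost without 0 h replicate 2 (-0.95, adjusted p = 0.155), 2 h replicate 1 (-1.32, adjusted p = 0.0782) or 2 h replicate 2 (-1.31, adjusted p = 0.119). The 2 h change of Ccn1 in the E2F1 line minus that in the EV line was -0.29 (95% interval -1.23 to 0.65) and did not pass.

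E2F1-line Ccn1 was at 9357 and 6024 at 6 h, which overlapped the 0 h libraries (0.18, 95% interval -0.48 to 0.85), and at 3745 and 2707 at 12 h. The 12 h change of -1.05 ± 0.32 (adjusted p = 0.00763) rested on the 0 h library at 9301, and without it the change was -0.56 (adjusted p = 0.179). Without 12 h replicate 2 it was -0.82 (adjusted p = 0.0828). Ccn2 held 886 and 1138 at 0 h, 351 and 493 at 2 h, 1117 and 691 at 6 h, and 716 and 456 at 12 h. None of its changes passed in the main fit (-1.27, -0.19 and -0.81, with adjusted p of 0.0801, 0.673 and 0.0575). Its 12 h fall passed with quantile normalization (-0.93, adjusted p = 0.0315), equal totals (-0.87, adjusted p = 0.0398) and only the groups compared (adjusted p = 0.000824). Its 2 h fall passed with quantile normalization (-1.35, adjusted p = 0.0495) and only the groups compared (adjusted p = 0.000898).

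Ankrd1 (chromosome 19, 36111961 to 36120099, minus strand), a cardiac ankyrin-repeat gene and a standard YAP/TAZ reporter, responded weakly here. Its libraries held 1637 and 2390 normalized counts at 0 h in the EV line, 2083 and 2920 at 2 h of serum, 4123 and 2626 at 6 h, and 3004 and 2362 at 12 h. Only the 6 h change from 0 h passed (0.73 ± 0.22, adjusted p = 0.00614), and it did not pass without 0 h replicate 1 (0.46, adjusted p = 0.115) or 6 h replicate 1 (0.41, adjusted p = 0.14). Against doxycycline in the same line at the same time, a comparison without 0 h libraries, the serum level of Ankrd1 was higher at 6 h (0.92, adjusted p = 0.00111; 0.60 and adjusted p = 0.036 without serum 6 h replicate 1) and at 12 h (0.92, adjusted p = 0.00107). Ankrd1 of the E2F1 line went from 1732 and 1988 at 0 h to 1476 and 1124 at 6 h (-0.53, adjusted p = 0.0501) and 1620 and 1222 at 12 h (-0.40, adjusted p = 0.119). The 6 h fall was near the threshold. It passed with a pseudocount of 8 (adjusted p = 0.0495), quantile normalization (-0.69, adjusted p = 0.00912) and equal totals (-0.64, adjusted p = 0.0168). The 12 h fall passed with quantile normalization (-0.55, adjusted p = 0.0276) and only the groups compared (adjusted p = 0.0118).

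**Figure D3:**
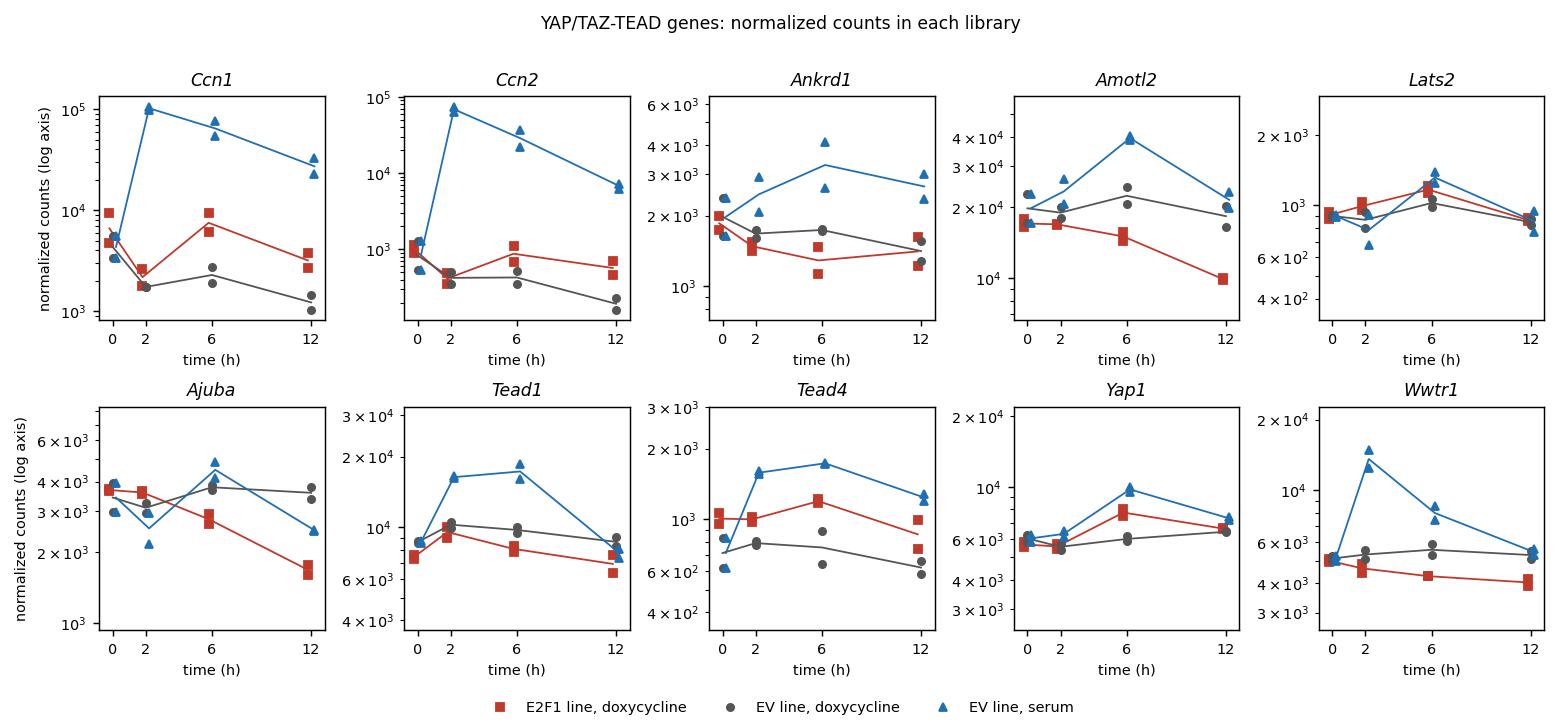
Normalized counts of each gene (log axis) against hours after doxycycline or serum, with 1 point for each library, lines through the geometric mean of the 2 libraries, and the EV 0 h libraries drawn in both EV series. Ccn1 and Ccn2 rise to 98252 to 106368 and 62888 to 74361 at 2 h of serum, and Ajuba and Amotl2 fall to 1606 to 1763 and 9816 to 10010 at 12 h in the E2F1 line.

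Per kilobase of exon in GENCODE M21, the mean over the 22 libraries was 10151 normalized counts for Ccn1, 3493 for Ccn2 and 3236 for Amotl2. The other genes followed at 1262 for Wwtr1, 878 for Ajuba, 741 for Tead1, 717 for Yap1, 676 for Ankrd1, 291 for Tead4 and 138 for Lats2. The means of Ccn1 and Ccn2 include the 6 serum libraries, in which both were high.

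Set against doxycycline in the EV line at the same hour, with no 0 h library in the comparison, serum left 7 of the 10 genes higher at 2 h (67.1% of all genes passed, 35% as higher), 9 higher at 6 h (65.8%, 35.8% as higher), and 5 higher (37.9% of all genes) and 1 lower (32.5%) at 12 h (70.4%). Ccn2 differed most, by 7.33 ± 0.36 at 2 h (the 2nd largest difference among all genes), 6.06 at 6 h and 5.11 at 12 h. Ccn1 differed by 5.88, 4.82 and 4.48. These differences exceed the changes from 0 h, since the EV levels of both genes under doxycycline were below those at 0 h. The lower gene at 12 h was Ajuba (-0.53, adjusted p = 0.00148). The groups compared here differed in doxycycline as well as in serum. With equal totals Ankrd1 at 2 h (0.16, adjusted p = 0.501), Lats2 at 6 h (0.16, adjusted p = 0.304) and Yap1 at 12 h (0.10, adjusted p = 0.156) did not pass. Ajuba (-0.69, adjusted p = 0.000129) and Lats2 (-0.54, adjusted p = 0.0013) then passed as lower at 2 h. With quantile normalization Tead1 (0.12, adjusted p = 0.229) and Ankrd1 (0.37, adjusted p = 0.136) did not pass at 2 h, nor Yap1 at 12 h (0.01, adjusted p = 0.934). Yap1 passed as higher at 2 h (0.18, adjusted p = 0.0224), and with equal totals (-0.21, adjusted p = 0.00499) and quantile normalization (-0.22, adjusted p = 0.00451) it passed as lower. Its call at 2 h was also lost without doxycycline 2 h replicate 1 (0.14, adjusted p = 0.155) or serum 2 h replicate 2 (0.14, adjusted p = 0.152).

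The steps within the serum series differed from gene to gene. From 2 to 6 h, 6 of the 10 genes changed (48.5% of all genes passed), 4 of them as higher (24.3% of all genes) and 2 as lower (24.3%). Amotl2 (0.76), Lats2 (0.74), Ajuba (0.83) and Yap1 (0.63) rose, while Ccn2 (-1.26) and Wwtr1 (-0.77) fell. The call of Ccn2 at this step was lost without 2 h replicate 2 (-1.13, adjusted p = 0.0564) or 6 h replicate 1 (-0.88, adjusted p = 0.104). From 6 to 12 h, 9 genes were lower, where 39.9% of all genes passed and 20.6% passed as lower. Ankrd1 (-0.30, adjusted p = 0.283) was the exception. The Tead4 call at this step (-0.49, adjusted p = 0.0183) was lost with equal totals (-0.35, adjusted p = 0.0782). It was also lost without 6 h replicate 1 (-0.48), 6 h replicate 2 (-0.49) or 12 h replicate 1 (-0.44). The limits for Ccn1 at this step are given above. Between 6 and 12 h of doxycycline in the E2F1 line 6 genes were lower (35.3% of all genes passed, 20.2% as lower). These were Ccn1 (-1.24), Ajuba (-0.72), Amotl2 (-0.60), Tead4 (-0.47), Lats2 (-0.43) and Yap1 (-0.23). Of these, Ajuba and Amotl2 kept the call whichever library was left out. Without 6 h replicate 1 only 2 of the 10 genes passed, with Ccn1 at -0.92 (adjusted p = 0.0844), Tead4 at -0.44 and Lats2 at -0.38 (adjusted p = 0.11 for each) and Yap1 at -0.18 (adjusted p = 0.129). The same 4 genes did not pass without 12 h replicate 2, with an adjusted p of 0.0696 for Ccn1, and with Tead4 at -0.26 (adjusted p = 0.293), Lats2 at -0.41 (adjusted p = 0.0871) and Yap1 at -0.23 (adjusted p = 0.0566).

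Subtracting the EV change from the E2F1-line change asks what the E2F1 construct adds to doxycycline and to further time in low serum. At 2 h none of the 10 genes passed, where 16 of all genes (0.143%) did, and no member had an unadjusted p under 0.05. At 6 h, 3 of the 10 passed (34.5% of all genes), 1 as higher (22.2% of all genes) and 2 as lower (12.3%). Yap1 rose more in the E2F1 line (0.46 ± 0.10, adjusted p = 0.00104), while Ajuba (-0.56 ± 0.19, adjusted p = 0.0257) and Wwtr1 (-0.34 ± 0.13, adjusted p = 0.0471) went lower there. The largest of the 10 differences at 6 h, that of Ccn1, did not pass (1.11, adjusted p = 0.0636). Over the alternative fits it ran from 0.61 to 1.60. Ccn2 (0.77, adjusted p = 0.254) and Amotl2 (-0.36, adjusted p = 0.16) did not pass either. With quantile normalization Amotl2 passed (-0.50, adjusted p = 0.0447). The Ajuba difference did not pass without E2F1 0 h replicate 1 (-0.57, adjusted p = 0.0516) or 2 (-0.54, adjusted p = 0.068), E2F1 6 h replicate 2 (-0.49, adjusted p = 0.0861), EV 0 h replicate 2 (-0.36, adjusted p = 0.154) or EV 6 h replicate 1 (-0.52, adjusted p = 0.0783). The Wwtr1 difference was lost in 7 of the 8 fits that each left out a library (-0.27 to -0.37, adjusted p 0.0658 to 0.182) and without the doxycycline 2 h libraries (adjusted p = 0.0571). The number of the 10 that passed was 1 without E2F1 0 h replicate 1 or EV 0 h replicate 2, and 5 without EV 0 h replicate 1.

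At 12 h, 4 of the 10 passed (50.5% of all genes), 1 as higher (27.3%) and 3 as lower (23.3%). The Ajuba difference was the most negative of the 10. At -1.20 ± 0.19 (adjusted p = 3.36e-05) it passed whichever library was left out. The Amotl2 difference was -0.68 ± 0.20 (adjusted p = 0.00775), or -0.47 (adjusted p = 0.0574) without EV 0 h replicate 2. Wwtr1 differed by -0.36 ± 0.13 (adjusted p = 0.0279), and did not pass without E2F1 0 h replicate 1 (-0.33, adjusted p = 0.0747), E2F1 12 h replicate 2 (-0.30, adjusted p = 0.0971), EV 0 h replicate 1 (-0.33, adjusted p = 0.0738) or EV 12 h replicate 1 (-0.30, adjusted p = 0.105). Ccn2 differed by 1.29 ± 0.51 (adjusted p = 0.042) from changes of -0.81 in the E2F1 line and -2.10 in EV cells. That difference did not pass without E2F1 0 h replicate 1 (1.11, adjusted p = 0.127), E2F1 12 h replicate 1 (0.96, adjusted p = 0.174), EV 0 h replicate 2 (0.66, adjusted p = 0.272) or EV 12 h replicate 1 (1.03, adjusted p = 0.151). The number that passed was 2 without E2F1 0 h replicate 1, EV 0 h replicate 2 or EV 12 h replicate 1. For Tead1 and Tead4 the 12 h differences were -0.11 (95% interval -0.38 to 0.17) and -0.02 (95% interval -0.48 to 0.44). With quantile normalization that of Tead1 passed (-0.31, adjusted p = 0.0295).

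**Figure D4:**
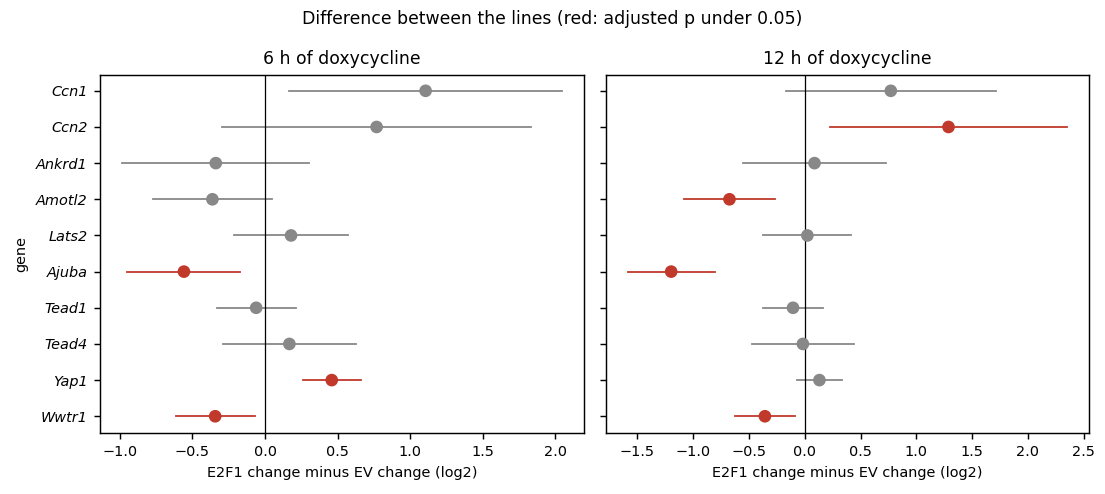
Difference between the doxycycline changes of the E2F1 line and the EV line on the log2 scale for each gene at 6 h (left) and 12 h (right), with points for the limma estimate, bars for its 95% interval and red where the adjusted p is under 0.05. Ajuba is lower in the E2F1 line by 0.56 at 6 h and 1.20 at 12 h, Yap1 is higher by 0.46 at 6 h, and the intervals of Ccn1 and Ccn2 are the widest.

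The E2F1 line and serum gave unequal changes for most of these genes. These series differed in line, doxycycline and serum. At 6 h the change in the E2F1 line was lower than the serum change for 9 of the 10 genes (57.9% of all genes passed, 27.6% as lower), and Lats2 was the exception (-0.18, 95% interval -0.58 to 0.21). The largest differences were those of Ccn2 (-5.29 ± 0.51, adjusted p = 9.07e-08), Ccn1 (-3.71, adjusted p = 1.41e-06) and Ankrd1 (-1.26, adjusted p = 0.00184). At 12 h it was lower for 7 (48.8%, 23.8% as lower), among them Ccn2 (-3.82), Ccn1 (-3.70), Tead4 (-1.01), Amotl2 (-0.91) and Ajuba (-0.67). The others were Ankrd1 (-0.83, adjusted p = 0.0325) and Wwtr1 (-0.40, adjusted p = 0.0161). Ankrd1 did not pass without E2F1 0 h replicate 2 (-0.73), E2F1 12 h replicate 2 (-0.625), EV 0 h replicate 1 (-0.56) or serum 12 h replicate 1 (-0.65). Wwtr1 did not pass without E2F1 0 h replicate 1 (-0.38), E2F1 12 h replicate 2 (-0.35) or serum 12 h replicate 1 (-0.35). Yap1 rose at 6 h both in the E2F1 line and under serum, by 0.45 and 0.69. The difference of -0.24 (adjusted p = 0.0363) was lost with quantile normalization (-0.16, adjusted p = 0.13), equal totals (-0.15, adjusted p = 0.157) or the groups compared alone (adjusted p = 0.119). It was also lost without E2F1 0 h replicate 1 (-0.21, adjusted p = 0.113), E2F1 6 h replicate 2 (-0.19, adjusted p = 0.137), EV 0 h replicate 1 (-0.20, adjusted p = 0.127) or serum 6 h replicate 2 (-0.21, adjusted p = 0.105).

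Among 8720 other genes with a mean of at least 500, those most like Ccn1 over the 11 group means (Pearson r of log2 values) were Dusp6 (0.983), Epha2 (0.980) and Smad7 (0.974). For Ccn2 they were Epha2 (0.991), Dusp6 (0.988) and Srfbp1 (0.984). Dusp6 codes for a phosphatase that acts on ERK, Epha2 for an ephrin receptor and Smad7 for an inhibitor of TGF-beta signalling. Those most like Ankrd1 were Tmem208 (0.959), Tmem167 (0.959) and Hsp90b1 (0.954), the last a chaperone of the endoplasmic reticulum. Over the same 11 groups r was 0.985 between Ccn1 and Ccn2, 0.814 between Ccn1 and Ankrd1 and 0.567 between Ccn1 and Amotl2. These values describe 11 points, of which the 3 serum groups lie far from the rest.

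Other genes of the pathway were taken from lists compiled from general knowledge, with the 10 genes above left out. Of 14 further genes of a YAP/TAZ target signature, 8 were higher and 2 lower at 2 h of serum (37.5% and 33.5% of all genes), with a median log2 change of 0.68 against 0.03 over all genes. Nuak2, a kinase gene, rose by 2.56 ± 0.14 (adjusted p = 1.75e-11) and Gadd45a, a stress-response gene, by 1.78, while Ptpn14, a phosphatase gene and itself a brake on YAP, fell (-0.58, adjusted p = 9.56e-06). At 6 h 6 were higher and 2 lower, or 3 higher with quantile normalization, where 36.5% of all genes were higher and 67.5% passed either way, among them Nuak2 (1.34) and Myof (1.05) up and Rbms3 (-1.99) down. At 12 h 6 were higher and 4 lower (36% and 29.7% of all genes), but only 1 was higher without serum 12 h replicate 1. The 6 and 12 h shares of higher genes were near those of all genes. With E2F1 induced 3 were higher and 3 lower at 6 h (1 and 7 with equal totals), near the 28.8% and 22.9% of all genes. At 12 h 1 was higher and 10 lower, where 31.8% and 29.7% of all genes were (median -0.49 against -0.02 over all genes). The largest falls at 12 h were Tgfb2 (-1.82 ± 0.31, adjusted p = 5.5e-05) and Rbms3 (-1.08, adjusted p = 4.32e-08), and the 1 rise was Ptpn14 (0.47, adjusted p = 0.000142). The count of lower genes was 6 without E2F1 0 h replicate 2. None of the 14 passed at 12 h in the EV line, where 4.17% of all genes did, under any alternative. For the E2F1 change minus the EV change at 12 h, 1 was higher and 6 lower (27.3% and 23.3% of all genes). There 5 were lower with a mean of at least 500, and 11 with quantile normalization.

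The target genes of serum response factor and its MRTF cofactors, which also answer to serum and to the actin cytoskeleton, are given beside them, because Ccn1 and Ccn2 are known to belong to both sets. All 14 in the table were higher at 2 h and at 6 h of serum (37.5% and 36.5% of all genes), with medians of 1.71 and 1.45, and 9 were higher at 12 h (36%). Actg2, a smooth muscle actin gene, rose by 5.36, 6.02 and 5.72 at these times, and Acta2 by 3.17 at 6 h and 2.79 at 12 h. At 12 h in the E2F1 line 1 was higher and 8 were lower (31.8% and 29.7% of all genes, median -0.59), led by Myl9, a myosin light chain gene (-1.95 ± 0.24, adjusted p = 1.45e-06), and Tgfb1i1 (-1.88, adjusted p = 1.78e-09). At 12 h in the EV line 5 were lower (3.42% of all genes), with Acta2 at -1.30 (adjusted p = 4.49e-05), and the count was 1 when only the groups compared were fitted. For the E2F1 change minus the EV change at 12 h, 3 of the 14 were higher and 6 lower (27.3% and 23.3% of all genes). The part of serum response factor in the changes of Ccn1 and Ccn2 was not tested.

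Of 25 further Hippo kinases and upstream regulators, 14 were higher and 7 lower at 2 h of serum (37.5% and 33.5% of all genes), led by Wwc1, the gene for KIBRA (1.57), and Map4k5 (1.43) upward and by Amot (-2.07) and Map4k2 (-1.11) downward. At 6 h 8 were higher and 6 lower, or 12 lower with equal totals, and the share of higher genes was near the 36.5% of all genes. Map4k2, a kinase that can act on LATS, went in opposite directions. It fell by 1.59 (log2, adjusted p = 7.99e-10) at 6 h of serum and rose after E2F1 induction by 2.13 ± 0.11 at 6 h (adjusted p = 5.31e-11) and by 2.20 (adjusted p = 4.63e-11) at 12 h. The authors' deposited table gives 2.16 and 2.21 for the rises. Tnik, a related kinase gene, did the reverse, with 1.42 at 6 h of serum and -1.45 at 12 h in the E2F1 line. Of the 25, 12 were higher and 5 lower at 6 h in the E2F1 line (28.8% and 22.9% of all genes). At 12 h there 9 were higher and 6 lower (11 lower with quantile normalization), near the 31.8% and 29.7% of all genes, and the atypical cadherin gene Fat4 fell by 1.21 (log2, adjusted p = 2.5e-06).

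Of the 4 further TEAD genes and cofactors in the table, 3 were lower at 2 h of serum (33.5% of all genes), led by Tead2 (-0.87, adjusted p = 1.08e-07) and Vgll3 (-0.75, adjusted p = 0.000447). Tead2 was lower still at 6 h (-1.88 ± 0.09, adjusted p = 1.05e-11), at the time when Tead1 and Tead4 were at 1.00 and 1.27. Vgll3, a cofactor that competes for TEAD, was at 0.66 (adjusted p = 0.00157) at 6 h, or 0.33 (adjusted p = 0.0622) with quantile normalization. At 12 h in the E2F1 line Tead3 (-0.69, adjusted p = 1.21e-05) and Vgll4, a TEAD corepressor gene (-0.67, adjusted p = 7.51e-06), were lower, as were 29.7% of all genes. Tead2 was at 0.32 (adjusted p = 0.00594), and stood at 0.14 (adjusted p = 0.211) with quantile normalization and at 0.24 (adjusted p = 0.0731) without E2F1 12 h replicate 2.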

How the data were processed

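Polyadenylated RNA of 22 libraries was read in pairs of 150 bp, per the labels' protocols. The submitters' processing notes name FastQC, Trimmomatic, HISAT2, featureCounts, DESeq2 and mm10, with no roles or settings. The deposited table holds normalized counts that the authors scaled and rounded to whole numbers, so each value was treated as a score and not as a raw count. A step worth 1 read was found in 15 of the 22 libraries, so whole reads could not be recovered in all. The authors' deposited tables give a log2 fold change and an adjusted p-value for genes past their limits, and served only for the values named as theirs.

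Groups and replicate numbers came from the labels. With a pseudocount of 1, log2 values of all 22 libraries entered a limma fit (version 3.58.1, R 4.3.3) with a mean for each of 11 groups, which left 11 residual degrees of freedom, and with limma's trend option. Benjamini-Hochberg adjustment ran over all 11208 genes. The 10 genes and the lists were chosen with earlier results of these data known. All 10 genes were tested in every comparison, though not every value is given above. From each list up to 2 rises and 2 falls of largest size were named among genes that passed. Alternatives were a pseudocount of 8, a mean of at least 500, quantile normalization, equal totals, a replicate block, only the groups compared, no doxycycline 2 h libraries, and leaving out each library. The mean of both lines at 2 h was chosen after seeing the data. When a library was left out, the lone library of its group was assumed to vary like the other groups. Replicates differed by more than counting noise in every group (median ratio of squared differences 7.33 or more), so none was taken as a duplicate. Positions and overlaps come from GRCm38 with GENCODE M21, and promoters from RefSeq on GRCm38.p6. Code was tested on simulated data.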

Additional observations from a re-analysis of the deposited data

Results flagged for a closer look

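The changes under doxycycline differed between the lines, by the test of the difference itself, for these genes. At 6 h the E2F1 change minus the EV change was -0.56 for Ajuba, 0.46 for Yap1 and -0.34 for Wwtr1. At 12 h it was 1.29 for Ccn2, -0.68 for Amotl2, -1.20 for Ajuba and -0.36 for Wwtr1. Of these 7, the Yap1 value at 6 h and the Ajuba value at 12 h passed in every fit that left out a library. Groups of 2 libraries were too small for a search for single outlying libraries.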

How the results depend on the processing

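Of 210 pairs of a gene and a comparison, 100 passed the threshold, 65 of them under every alternative run and 35 not under some, and 31 that had not passed did so under some. Yap1 changed direction at 2 h of serum with quantile normalization (-0.36) and equal totals (-0.31), and against doxycycline in the EV line (-0.22 and -0.21). A further 99 values, over 55 pairs, changed sign without passing on either side. The number of the 10 genes that passed at 2 h in the E2F1 line was 1, and it was 3 with quantile normalization, with only the groups compared and as the mean of both lines, which added Ccn2 and Tead1. In the EV line at 2 h the number was 1, 2 with quantile normalization and 3 as the mean of both lines. At 6 h in the E2F1 line it was 3, and it was 5 with a mean of at least 500, with quantile normalization and with only the groups compared. For the lines at 0 h it was 1, and 0 with quantile normalization, with only the groups compared and without the doxycycline 2 h libraries. For these shifts the cause was not tested.

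When each library was left out in turn, the number that passed ran from 0 to 1 at 2 h, 1 to 3 at 6 h and 3 to 7 at 12 h in the E2F1 line, from 0 to 2 at 2 h and at 12 h in the EV line, from 6 to 7, 9 to 9 and 4 to 6 at 2, 6 and 12 h of serum, from 1 to 5 and 2 to 5 for the line difference at 6 and 12 h, from 0 to 1 between the lines at 0 h, and from 2 to 5 between 6 and 12 h in the E2F1 line. Counts over all genes that moved by over 1.5 times were 208 at 2 h in the E2F1 line (26 to 120 with a library left out, 330 with quantile normalization, 596 with only the groups compared, 1396 as the mean of both lines), 824 at 2 h in the EV line (157 to 505, 400 with only the groups compared, 1396), 15 and 467 at 6 and 12 h in the EV line (8 to 30 and 26 to 803 with a library left out, 1 and 77 with only the groups compared), 1684 between the lines at 0 h (684 to 1236, and 652 with only the groups compared) and 16 for the line difference at 2 h (2 to 22, 5 with a mean of at least 500, 51 with quantile normalization, 45 with only the groups compared).

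The replicate numbers were not taken as pairing the libraries: over 55 pairs of groups the correlation of same-numbered deviations ran from -0.37 to 0.59 and was over 0.1 in 20. Among the doxycycline groups at 0, 6 and 12 h it was 0.41 to 0.59 within the EV line and 0.13 to 0.40 within the E2F1 line, while most pairs with a doxycycline 2 h group were negative. A block over these groups alone was not run. With the replicate number as a block the line difference at 2 h had 33 genes in place of 16, and the number of the 10 genes that passed was as without it in all 21 comparisons. Scaling also moved the share of higher genes among those that passed by over 10 percentage points: with equal totals from 52.2% to 25.9% and 54.4% to 38.4% for serum against doxycycline at 2 and 6 h, from 50% to 69.5% and 48.4% to 69.6% for the serum steps, from 59% to 72% for the lines at 0 h, from 42.7% to 54.6% between 6 and 12 h in the E2F1 line and from 37.5% to 25% for the line difference at 2 h, and with quantile normalization from 64.5% to 44.5% and 54% to 43.5% for the line difference at 6 and 12 h.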
